A study of Mus musculus with 8 samples.

Results

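The UDP-glucuronosyltransferase genes of the Ugt2b, Ugt2a, Ugt3a and Ugt1a groups were followed in mouse liver with and without HNF6. The set was given as a list of 10 gene symbols, Ugt1a1, Ugt2a3, Ugt2b1, Ugt2b5, Ugt2b34, Ugt2b35, Ugt2b36, Ugt2b37, Ugt2b38 and Ugt3a2, and was not chosen by a threshold on these values. It was, however, chosen with earlier results of these data known. The platform annotation paired 9 of the 10 symbols with a probe set, among 19540 genes in all. Each of the 9 had 1 probe set of its own, 0 probe sets were shared with another symbol, and Ugt1a1, which encodes the bilirubin-conjugating enzyme, is not analysed here. The study measured liver RNA on 8 Affymetrix arrays, 4 from wild-type livers (WT) and 4 from livers depleted of HNF6 (HNF6KO), a homeodomain transcription factor of hepatocytes encoded by Onecut1. Mice of both groups were males labelled C57B/6, 12 weeks old, fed normal chow on a normal light and dark schedule with no specific treatment, and livers were taken at ZT10, the time 10 h after lights on, given as 5 pm. The sources used here do not say how HNF6 was removed, in which cells, or whether each array came from its own animal, and the p-values therefore cover the spread among these samples alone, which may be technical. Values are the authors' log2 expression per probe set. In bulk liver, fewer cells of a type and less RNA per cell cannot be told apart.

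UDP-glucuronosyltransferases sit in the membrane of the endoplasmic reticulum and join a sugar, mostly glucuronic acid, to bilirubin, steroids, bile acids, thyroid hormones and drugs, which makes these compounds soluble enough to leave in bile or urine. Enzymes of the Ugt1 group arise from a single locus with alternative first exons, whereas Ugt2 enzymes are encoded by a row of separate, closely related genes, and Ugt3 enzymes use sugars other than glucuronic acid, as shown for the human enzymes. Liver is the main site of expression of many Ugt2b genes, and Ugt2b1 has been described as more abundant in male than in female mouse liver. Because Ugt2b transcripts resemble each other, a probe set can also bind transcripts of a relative, and the member that gave a signal is to that extent uncertain. Since probe sets differ in how strongly they bind, no order of levels between genes is given, and summed marker levels are compared only between arrays.

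The Onecut1 transcript was checked first because it tests the labels. Its log2 level was 10.17, 9.87, 10.45 and 10.52 in WT and 9.32, 9.05, 8.67 and 8.70 in HNF6KO, here and below in the order of array numbers 1 to 4. All 4 HNF6KO arrays were below all WT arrays, with the lowest values on HNF6KO arrays 3 and 4. Hepatocyte marker genes were bright on all arrays, with 8 of 8 measured at 11.2 or above and 0 past the test below. For 2 of the 8, Alb and Ttr, all HNF6KO arrays were above all WT arrays, beside 5.67% of all genes with groups apart in either direction. Their log2 changes were 0.08 and 0.09, and 7 of the 8 changes were above 0. With 8 genes nothing is read from these counts. Every gene was tested with limma, p-values were adjusted by Benjamini-Hochberg across the 19540 genes, and a gene passed with an adjusted p under 0.05. The test called 78 genes, or 0.399%, of which 47 fell and 31 rose in HNF6KO. Onecut1 passed, with a log2 change of -1.32 ± 0.18 (SE; limma, adjusted p = 0.0273). Leaving out WT array 1, 3 or 4, or HNF6KO array 3 or 4, ended that call (limma, adjusted p = 0.0633 to 0.0954).

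Of the 9 measured transferases, 0 passed this test (limma), 2 had an unadjusted p under 0.05, and both of those, Ugt2b1 and Ugt3a2, were lower in HNF6KO. At the unadjusted level 1859 genes passed, or 9.51% of all genes. The same 2 members were the ones whose 4 HNF6KO arrays all lay below the 4 WT arrays, which is 22.2% of the members beside 5.67% of all genes with groups apart in either direction. With 9 genes this is a small count, and nothing particular to the family is read from it. The median log2 change of the 9 was -0.01, the same to 2 decimals as over all genes (-0.01), with 3 members above 0 and 6 below.

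**Figure D1:**
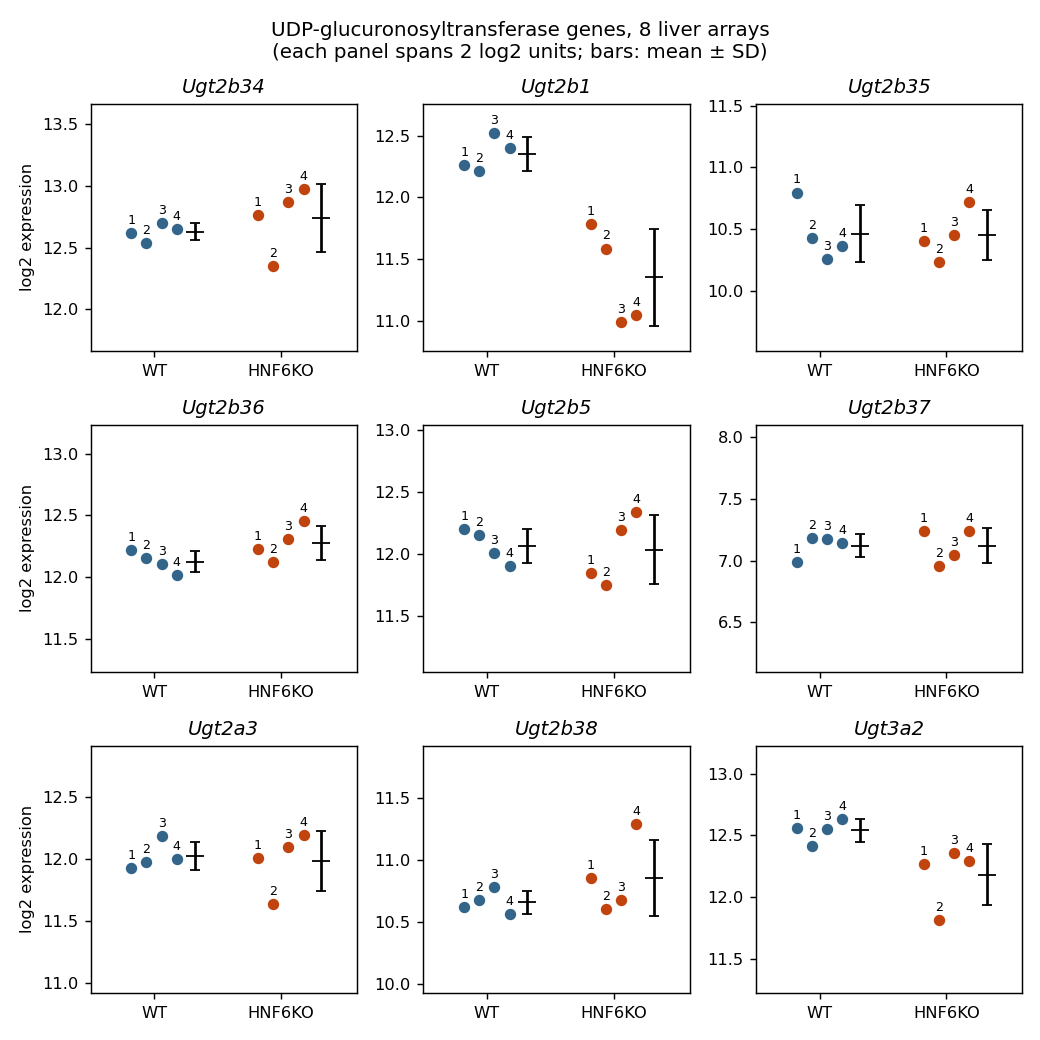
Log2 expression of the 9 measured transferase genes on each array, with points labelled by array number and black bars giving mean ± SD (n = 4). Each panel spans the same range of the log2 scale, and the groups lie apart for Ugt2b1 (lowest WT value 12.22, highest HNF6KO value 11.78) and for Ugt3a2 (12.41 and 12.36).

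Ugt2b1 showed the largest difference of the 9. Its log2 expression was 12.26, 12.22, 12.52 and 12.40 on WT arrays 1 to 4. On HNF6KO arrays 1 to 4 it was 11.78, 11.59, 10.99 and 11.05. All HNF6KO arrays were therefore below all WT arrays, and HNF6KO arrays 3 and 4 were the lowest, as for Onecut1. The WT mean was 12.35 ± 0.14 and the HNF6KO mean 11.35 ± 0.39 (SD, n = 4). The log2 change was -0.997 ± 0.17 (SE), with a 95% interval of -1.39 to -0.60, or a level 2.00-fold lower with an interval of 1.52 to 2.63. The adjusted p was 0.0624 in limma, so Ugt2b1 missed the threshold although its p of 2.97e-04 ranked 92 of 19540. Left out singly, 7 of the 8 arrays gave adjusted p = 0.0772 to 0.184. Without HNF6KO array 1 the gene passed (log2 change -1.14, limma adjusted p = 0.0357).

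The size of the Ugt2b1 difference varied with the array numbers. Arrays 1 and 2 of both groups were set apart from arrays 3 and 4 because an earlier analysis of these data had shown that split. In a limma fit with group and split as terms, 1383 of 19540 genes differed between the pairs at an adjusted p under 0.05. The split was thus chosen on these data, and the sources used here do not say what the numbers stand for. Within arrays 1 and 2 the log2 change of Ugt2b1 was -0.55 (limma, adjusted p = 0.169). Within arrays 3 and 4 it was -1.44 (limma, adjusted p = 0.00356). Onecut1 itself had a log2 change of -0.83 within arrays 1 and 2 and -1.80 within arrays 3 and 4. With the split as a term in the fit Ugt2b1 passed (limma, adjusted p = 0.0246), as did 245 genes or 1.25% of all. The difference between the Ugt2b1 changes in the 2 pairs of arrays was -0.89, with an unadjusted p of 8.11e-05 and an adjusted p of 0.357 in limma. That test of the difference called 0 of 19540 genes after adjustment and 2047, or 10.5%, at an unadjusted p under 0.05. It was under 0.05 unadjusted for 4 of the 9 members, which are Ugt2b1, Ugt2b5, Ugt2b35 and Ugt2b36.

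Ugt2b1 was set against each other transferase by taking the difference of the log2 values within each array. The change of Ugt2b1 was more negative than that of each of the 7 others on chromosome 5, by 0.96 (Ugt2a3 and Ugt2b5) to 1.19 (Ugt2b38) on the log2 scale. For all 7 the within-array differences of the HNF6KO arrays lay wholly apart from those of the WT arrays. Against Ugt3a2 the difference was -0.64 and the groups overlapped. These 8 values share Ugt2b1, which was picked for the smallest p of the family, so they are a description and no test is given.

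The sequence just before the start of Ugt2b1 is shown because HNF6 is the factor removed, beside that of Ugt2b34, the neighbouring transferase gene whose groups overlapped. Both are the 250 bases before the annotated start, from RefSeq (GRCm38.p6, minus strand), Ugt2b1 at chr5:86926504-86926753 and Ugt2b34 at chr5:86906938-86907187, read 5′ to 3′ with capitals for letters that match a searched motif. Motifs were searched on both strands. The forms of the core bound by ONECUT factors that were searched are ATTGAT, the related form ATCGAT and, added after the sequences had been read, the form ATTGAC.
Ugt2b1: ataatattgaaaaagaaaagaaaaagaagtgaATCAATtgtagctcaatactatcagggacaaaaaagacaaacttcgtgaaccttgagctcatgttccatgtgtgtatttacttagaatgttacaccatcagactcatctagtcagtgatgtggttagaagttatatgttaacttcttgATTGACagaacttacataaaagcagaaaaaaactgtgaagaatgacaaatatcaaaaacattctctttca
Ugt2b34: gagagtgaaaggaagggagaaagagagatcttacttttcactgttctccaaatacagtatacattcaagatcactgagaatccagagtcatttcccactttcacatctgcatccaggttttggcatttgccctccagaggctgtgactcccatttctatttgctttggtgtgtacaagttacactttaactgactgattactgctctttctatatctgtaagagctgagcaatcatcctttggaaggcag

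The Ugt2b1 window holds ATTGAT on the opposite strand, 218 bases before the start, and ATTGAC on the same strand, 70 bases before it. The Ugt2b34 window holds 0 matches. In windows of 300 bases, 250 before and 50 after the start, ATTGAT was found in 7.54%, ATTGAC in 6.27%, both of these in 0.712% and ATCGAT in 0.925% of 32851 RefSeq promoter windows. Since ATTGAC was added after the sequences had been read, the share with both is no measure of how rare the Ugt2b1 window is. A window was found for 8 of the 9 measured members. Of those 8, ATTGAT was in 2 (Ugt2b1, and Ugt2b36 at 19 bases into the transcript), ATTGAC in 1 (Ugt2b1) and ATCGAT in 0. The window of Ugt1a1, which has no expression value here, also holds both, ATTGAT 48 and ATTGAC 74 bases before the start. GTTAAT, the core of the HNF1 site, was searched as well. It was in 1 of the 8 windows (Ugt2a3) and in that of Ugt1a1, beside 7.10% of all windows. A match describes the letters only and says nothing of binding.

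Ugt3a2 was the other member whose groups lay apart, by a small gap. The human enzyme of this name transfers glucose or xylose in place of glucuronic acid. Ugt3a2 was 12.56, 12.41, 12.55 and 12.64 in WT and 12.27, 11.82, 12.36 and 12.29 in HNF6KO. The lowest value was that of HNF6KO array 2, while the other HNF6KO arrays were close under the lowest WT value. The WT mean was 12.54 ± 0.09 and the HNF6KO mean 12.18 ± 0.25 (SD, n = 4). The log2 change was -0.36 ± 0.11 (SE), with a 95% interval of -0.62 to -0.10 (limma, adjusted p = 0.335). Without HNF6KO array 2 it was -0.23 (limma, adjusted p = 0.286). Ugt3a1, its relative on chromosome 15 and not on the list of 10, was 10.78, 11.02, 11.05 and 10.85 in WT and 10.76, 10.38, 10.85 and 10.57 in HNF6KO. Those groups overlapped, with a log2 change of -0.29 ± 0.11 (SE) that did not pass (limma, adjusted p = 0.428). Of 12 further Ugt genes outside the list, 2 were measured, Ugt3a1 and Ugt8a, which makes galactosylceramide in myelin and had a log2 change of -0.06 ± 0.05 (SE).

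The other 7 members, all on chromosome 5, overlapped between the groups, and their log2 changes ran from -0.04 to 0.20 with SEs of 0.08 to 0.14 (limma, adjusted p = 0.583 to 0.999). Their 95% intervals together reached from -0.33 (Ugt2b5) to 0.50 (Ugt2b38). These limits stand for a level 1.26-fold lower and 1.42-fold higher. Larger differences lay outside each interval, while smaller ones lay within at least 1 of them. A p above the threshold does not show that the groups were alike.

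**Figure D2:**
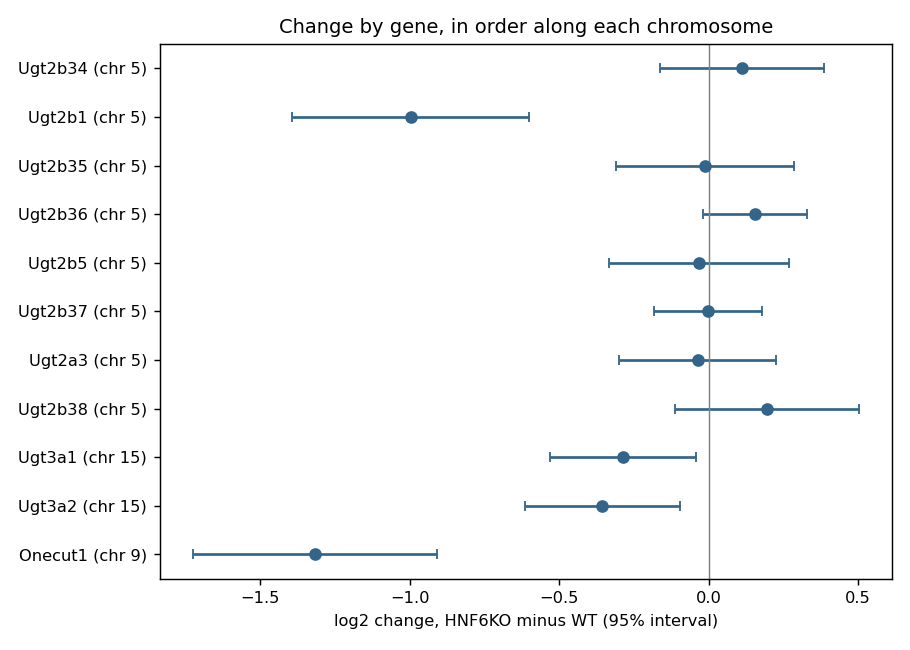
Log2 change (HNF6KO minus WT) with its 95% interval for the 8 chromosome 5 genes in their order along the chromosome, for Ugt3a1 and Ugt3a2 on chromosome 15 and for Onecut1. Ugt2b1 (-0.997) lies between Ugt2b34 (0.11) and Ugt2b35 (-0.01), whose intervals include 0.

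Along chromosome 5 the order of the 8 genes in the reference gene table is Ugt2b34, Ugt2b1, Ugt2b35, Ugt2b36, Ugt2b5, Ugt2b37, Ugt2a3 and Ugt2b38. Ugt2b1 thus stands between Ugt2b34 and Ugt2b35, and the groups overlapped for both neighbours. Ugt2b34 was 12.62, 12.54, 12.70 and 12.65 in WT and 12.76, 12.35, 12.87 and 12.97 in HNF6KO, so 3 HNF6KO arrays were above all WT arrays and array 2 below them. Its log2 change was 0.11 ± 0.12 (SE), with an interval of -0.16 to 0.39. Ugt2b35 was 10.80, 10.43, 10.26 and 10.37 in WT and 10.40, 10.23, 10.45 and 10.72 in HNF6KO. Its highest and lowest values were thus WT array 1 and HNF6KO array 2, with a log2 change of -0.01 ± 0.13 (SE).

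Ugt2b36 came nearest to a difference in the upward direction. It was 12.22, 12.16, 12.11 and 12.02 in WT and 12.23, 12.13, 12.31 and 12.45 in HNF6KO, with HNF6KO arrays 3 and 4 the highest and HNF6KO array 2 within the WT range. The log2 change was 0.15 ± 0.08 (SE), with an interval of -0.02 to 0.33. Ugt2b38 was 10.62, 10.68, 10.78 and 10.57 in WT and 10.85, 10.61, 10.68 and 11.29 in HNF6KO. Its change of 0.20 ± 0.14 (SE) on the log2 scale leaned on HNF6KO array 4 and was 0.05 without it. Ugt2a3, whose human counterpart can conjugate bile acids, was 11.93, 11.98, 12.19 and 12.00 in WT and 12.01, 11.64, 12.10 and 12.20 in HNF6KO. Only HNF6KO array 2 left the WT range by more than 0.1, and the log2 change was -0.04 ± 0.12 (SE).

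Ugt2b5 had a change near 0 over all arrays and opposite differences within the pairs of arrays. It was 12.20, 12.15, 12.01 and 11.90 in WT and 11.85, 11.75, 12.19 and 12.34 in HNF6KO. The HNF6KO value was below the WT value on arrays 1 and 2 and above it on arrays 3 and 4, with log2 changes of -0.38 and 0.31. Over all arrays the change was -0.03 ± 0.13 (SE), and the difference between the 2 pairs of arrays was 0.69 (limma, unadjusted p = 2.99e-04, adjusted p = 0.442). Ugt2b37 was 6.98, 7.18, 7.17 and 7.14 in WT and 7.24, 6.96, 7.04 and 7.24 in HNF6KO. These values stood near the array medians of 6.89 to 6.97, and the log2 change was -9.38e-04 ± 0.08 (SE). A fold change can be understated in dim probe sets, and whether it was here was not tested.

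**Figure D3:**
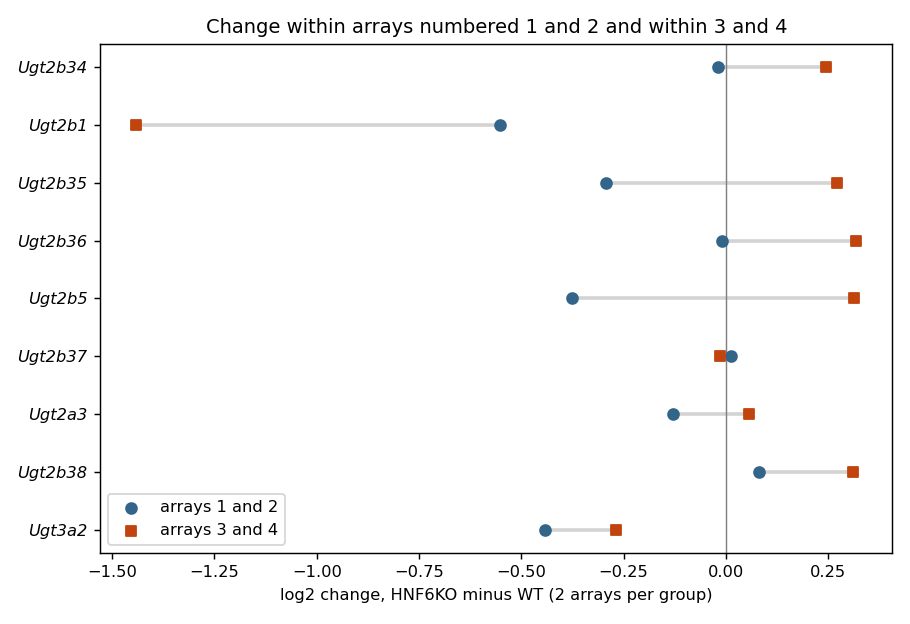
Log2 change (HNF6KO minus WT) of each member within arrays 1 and 2 (circles) and within arrays 3 and 4 (squares), each from 2 arrays per group and drawn without error bars. Ugt2b1 runs from -0.55 to -1.44, while 6 of the 7 members other than Ugt2b1 and Ugt3a2 lie further right within arrays 3 and 4.

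Of those 7 members, 6 had a higher change within arrays 3 and 4 than within arrays 1 and 2, the opposite of Ugt2b1, as did 46.7% of all genes. At an unadjusted p under 0.05, 3 of the 7 differed, beside 10.5% of all genes. None of the 9 passed that test after adjustment over all genes (limma, lowest adjusted p = 0.357). The HNF6KO arrays also differed from each other in a way that most members shared. HNF6KO array 2 gave the lowest HNF6KO value for 8 of the 9 members, all but Ugt2b1, beside 24.9% of all genes. HNF6KO array 4 gave the highest for 7 of the 9, beside 27.0% of all genes. A lowest value on array 2 was not particular to the transferases. Among HNF6KO arrays it was also the lowest for each measured Kupffer cell and macrophage marker, such as Vsig4 (8.63, 7.47, 10.12 and 9.94). The same held for each measured endothelial marker except Lyve1 (7.68, 8.37, 9.02 and 8.12), but not for the hepatocyte marker Alb (14.00, 14.08, 14.11 and 14.02). Probe sets of relatives can share signal, so these members are not separate observations.

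The letters before the start of Ugt2b5, Ugt2b37 and Ugt2b38 are shown because they give a direct view of how alike these stretches are. They are not the sequences of transcripts or probe sets. Each line is the 100 bases before the start (RefSeq, GRCm38.p6, minus strand), Ugt2b5 at chr5:87140341-87140440, Ugt2b37 at chr5:87254789-87254888 and Ugt2b38 at chr5:87424204-87424303, with capitals for the longest run that the 3 share.
Ugt2b5: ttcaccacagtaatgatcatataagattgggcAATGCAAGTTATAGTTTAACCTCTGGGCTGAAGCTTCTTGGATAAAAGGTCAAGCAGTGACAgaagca
Ugt2b37: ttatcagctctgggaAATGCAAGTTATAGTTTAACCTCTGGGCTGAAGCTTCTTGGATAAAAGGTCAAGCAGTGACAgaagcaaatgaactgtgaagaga
Ugt2b38: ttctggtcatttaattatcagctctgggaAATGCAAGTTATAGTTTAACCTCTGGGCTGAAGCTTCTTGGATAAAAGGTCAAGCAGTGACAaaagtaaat

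The shared run is 62 bases long and was found in these 3 windows only among all 32851. It ends 6, 23 and 9 bases before the annotated start of Ugt2b5, Ugt2b37 and Ugt2b38. In global alignments of the 100 bases before the start, Ugt2b5 and Ugt2b38 were 80.8% identical, Ugt2b37 and Ugt2b38 73.7% and Ugt2b5 and Ugt2b37 67.5%. High identity was not particular to these 3 genes. Ugt2b36, which lacks the run, was 77.0% identical to Ugt2b38, 70.2% to Ugt2b5 and 63.2% to Ugt2b37. Low identity was not particular to Ugt2b1, which was 40.2% identical to Ugt2b5, beside 43.3% for Ugt2a3 and 44.6% for Ugt2b34. The log2 changes of the 3 genes with the shared run were -0.03, -9.38e-04 and 0.20, with all 3 intervals including 0.

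Genes that supply, move or use glucuronides were counted as a frame for the transferases, from lists chosen with earlier results of these data known. Of the 33 genes measured on these lists, 0 passed (limma), beside 3 at an unadjusted p under 0.05 (Ugdh, Abcg2 and Abcc4). That count is near the 9.51% of all genes at this level and is not a result about the lists. In the list of UDP-sugar supply, 11 of 11 genes were measured, 0 passed, and the median log2 change was 0.11, beside -0.01 over all genes. Ugdh, which makes UDP-glucuronic acid, was 11.89, 11.82, 11.53 and 11.59 in WT and 12.01, 11.94, 11.76 and 12.12 in HNF6KO. The groups overlapped, with 3 of 4 HNF6KO arrays above every WT array, and the log2 change was 0.25 ± 0.10 (SE; limma, adjusted p = 0.487). The nucleotide sugar transporter Slc35b4 had a change of -0.30 ± 0.16, and the phosphoglucomutases Pgm1 and Pgm2 had changes of 0.11 ± 0.06 and 0.30 ± 0.18 (log2 ± SE).

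Of 6 measured transporters that carry glucuronides or related anions, 0 passed and the median log2 change was -0.11. Abcg2, an exporter in the canalicular membrane, was 10.18, 10.28, 10.29 and 10.45 in WT and 10.01, 9.29, 9.92 and 9.91 in HNF6KO. All HNF6KO arrays were below all WT arrays, with a log2 change of -0.52 ± 0.15 (SE; limma, adjusted p = 0.269), and of -0.35 without HNF6KO array 2 (limma, adjusted p = 0.131). Abcc4, an exporter to blood, was 7.73, 7.35, 7.44 and 7.31 in WT and 7.76, 7.82, 7.72 and 8.74 in HNF6KO. Its log2 change of 0.55 ± 0.22 (SE; limma, adjusted p = 0.453) became 0.31 without HNF6KO array 4. The uptake carriers Slco2b1 and Slco1b2 had changes of -0.15 ± 0.10 and -0.12 ± 0.09 (log2 ± SE).

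Of 5 measured genes that cleave glucuronides or use glucuronic acid, 0 passed and the median log2 change was -0.07. Gulo, the last enzyme of vitamin C synthesis from glucuronic acid in mice, had a log2 change of -0.20 ± 0.10 (SE), and Rgn, which acts just before it, one of -0.13 ± 0.08. Dcxr, the xylulose reductase, had a change of 0.09 ± 0.07 and Gusb, the lysosomal glucuronidase, one of -0.07 ± 0.07. Of 11 measured regulators of transferase genes, 0 passed and the median was -0.08. The receptor CAR (Nr1i3) had a change of -0.33 ± 0.22, Nfe2l2 (encoding NRF2) one of 0.22 ± 0.17, Hnf4a one of -0.19 ± 0.18 and Ppara one of -0.08 ± 0.08 (log2 ± SE).

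**Figure D4:**
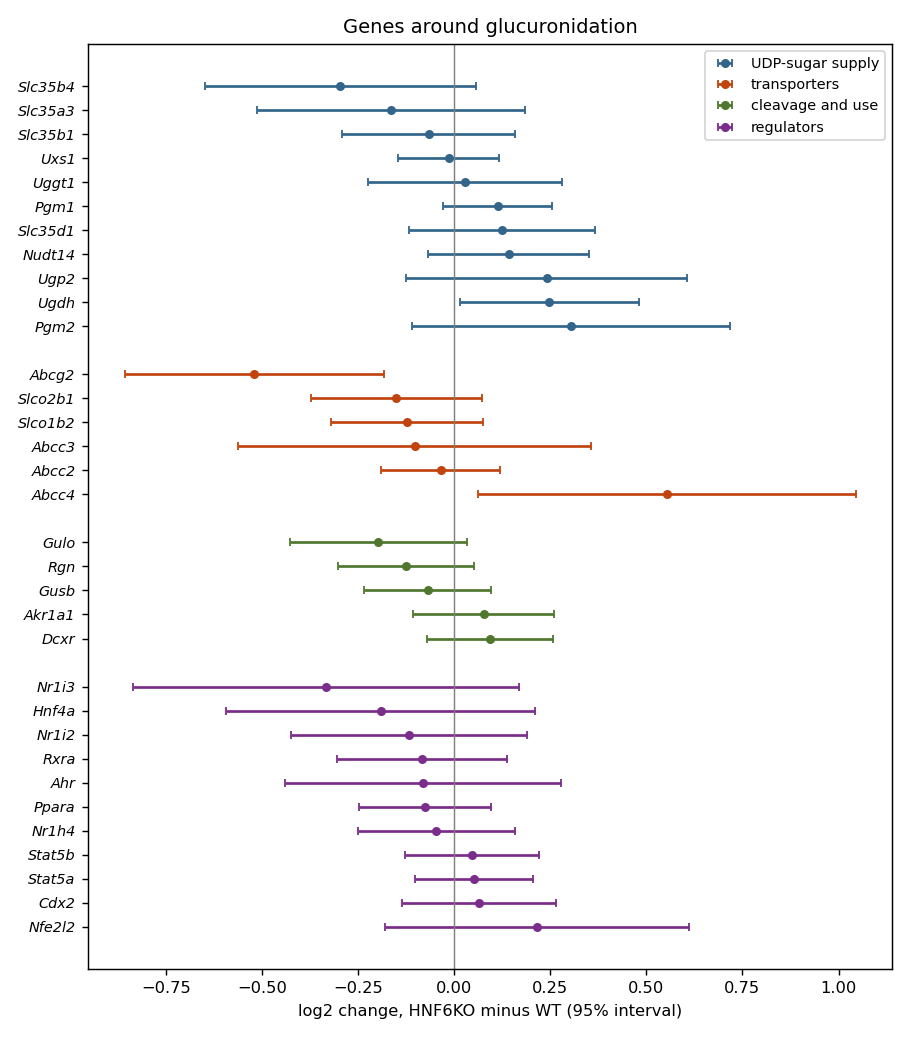
Log2 change (HNF6KO minus WT) with its 95% interval for the measured genes of UDP-sugar supply (11), transport (6), glucuronide cleavage and use (5) and regulation (11). Intervals that do not include 0 are those of Ugdh (0.25), Abcg2 (-0.52) and Abcc4 (0.55), before any adjustment.

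By the likeness of values over the 8 arrays, the genes outside the family most like Ugt2b1 were Alas2 (Pearson r = 0.989, Spearman rho = 0.929), Cyp4f14 (0.975 and 0.929), Htr1a (0.975 and 1) and Onecut1 (0.974 and 0.976). These r values rest mainly on the gap between the groups and are given as a description. Cyp4f14, a P450 that hydroxylates fatty acids and eicosanoids, fell by 0.95 ± 0.11 (SE) on the log2 scale (limma, adjusted p = 0.0111). Its mean was 10.69 ± 0.05 in WT and 9.74 ± 0.24 in HNF6KO (SD, n = 4), and without WT array 2 it no longer passed (limma, adjusted p = 0.0570). Htr1a was dim in both groups, at 6.18 and 6.08.

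Alas2, which encodes the erythroid form of the first enzyme of heme synthesis, is a blood marker, and its values moved with Ugt2b1. It was 9.70, 9.82, 10.02 and 9.70 in WT and 9.32, 9.09, 8.39 and 8.53 in HNF6KO. All HNF6KO arrays were below all WT arrays, arrays 3 and 4 the lowest, with a log2 change of -0.98 ± 0.19 (SE; limma, adjusted p = 0.0925). Of the 4 measured blood and lymphoid markers 0 passed, and the log2 of their summed level ran from 10.1 to 10.3 in WT and from 9.17 to 9.83 in HNF6KO. Alas2 was the one marker of the 4 whose groups lay apart, and the groups overlapped for the other 3, Cd3e, Cd79a and Nkg7, with log2 changes of 0.0038, -0.08 and -0.11. Those 3 are lymphoid markers. Alas2 was the only erythroid marker measured, since Hba-a1 and Hbb-b1 on the list were not among the genes measured. The summed level rests mainly on the Alas2 signal. The part of blood cells in the Ugt2b1 result was not tested. Markers of intestine and kidney, tissues that also express transferases, were dim, with 7 of 8 between 4.54 and 6.65. The exception was Fabp2, at 9.49 to 10.4, and 0 of the 8 passed. Bile duct markers were at 4.64 to 7.37 with 0 of 5 passing. Kupffer cell and macrophage markers had 0 of 8 passing, and the log2 of their summed level spread from 10.8 to 12.2 in WT and from 10.9 to 12.5 in HNF6KO. Endothelial markers (0 of 7 passing) spread from 11.5 to 12.3 and 11.4 to 12.4, and stellate markers (0 of 8) from 11.7 to 12.4 and 11.7 to 12.5, in WT and HNF6KO. Adgre1, Pecam1 and Dcn, markers from these 3 lists, were higher on arrays 3 and 4 than on arrays 1 and 2 in both groups. Pecam1 was 6.98, 7.26, 7.84 and 7.75 in WT and 7.36, 7.13, 8.16 and 8.12 in HNF6KO. Not all markers followed this split, among them Marco (WT 6.98, 7.23, 7.19 and 7.37) and Col3a1 (WT 7.94, 7.86, 7.85 and 7.98). The part of these cell types in the split was not tested.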

How the data were processed

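Liver RNA was measured on 8 Affymetrix arrays. The authors deposited 1 log2 value per probe set and array for 22725 probe sets. The log2 scale is inferred from the deposited values, and the sources used here do not state how the arrays were normalized or summarised. The platform annotation gave 1 symbol to 21113 probe sets, several to 43 and none to 1569. The probe set with the highest mean over 8 arrays stood for a gene, which left 19540 genes. The number of arrays limits the precision.

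HNF6KO was compared with WT with limma 3.58.1 (lmFit, eBayes) in R 4.3.3, and the step was tested on simulated data. Changes are HNF6KO minus WT. Members and lists were chosen with earlier results of these data known. Named genes were the members, Onecut1, up to 4 genes per list with the smallest p, and the 4 genes most like Ugt2b1 (the member with the smallest p) and Ugt2b34 (the member with the highest signal, used only to pick it). Promoters are RefSeq's (GRCm38.p6), aligned with Biopython 1.88. Protein identity, planned beforehand, was not analysed here. Pairs of arrays correlated with r = 0.987 to 0.997, and none held identical values.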

Additional observations from a re-analysis of the deposited data

Results flagged for a closer look

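In groups of 4, a single array stood far from the other 3 in 4 of 56 groups tested, where chance gives about 1 in 20. In HNF6KO, array 2 was low for Ugt3a2 (11.82, the others 12.27 to 12.36) and for Abcg2 (9.29, the others 9.91 to 10.01). HNF6KO array 4 was high for Abcc4 (8.74, the others 7.72 to 7.82). HNF6KO array 1 was high for the uptake carrier Slco2b1 (10.27, the others 9.84 to 9.89).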

How the results depend on the processing

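The count of members past the threshold was 0, and it was 1, always Ugt2b1, when genes under the 40th percentile of mean level were left out (log2 change -0.997, limma adjusted p = 0.0455), array quality weights (-1.17, adjusted p = 0.00836), the split of arrays as a term, arrays 3 and 4 alone, or a threshold of 0.1. The split was chosen on these data, and the threshold of 0.1 lies above the main adjusted p of Ugt2b1 (limma, 0.0624). Passing under those settings is therefore no separate support for the call. Leaving out single arrays gave 0 to 1. The change of Ugt2b1 stayed negative under all 21 alternatives, from -1.44 to -0.55 (limma, adjusted p = 0.00356 to 0.184). The other 8 members passed in 0 of 168 fits. Within arrays 3 and 4 the change of Ugt2b5 turned to 0.31 and that of Ugt2b35 to 0.27, and the cause was not tested. Members near 0 changed sign in 26 fits in all. Over all genes the count of 78 was 202 with array weights, 245 with the split as a term, 22 within arrays 1 and 2, 19 without HNF6KO arrays 3 and 4, 162 at a threshold of 0.1, and 16 to 79 with single arrays left out (26, 16, 28 and 40 without WT arrays 1 to 4, 27 and 30 without HNF6KO arrays 3 and 4). With array number as a replicate block 125 genes passed, 0 of them members (Ugt2b1 adjusted p = 0.0863). Same-numbered arrays deviated together with r = 0.0233 to 0.506 and 4 of 8 arrays matched best with their own number. These values do not settle whether the numbers pair the arrays, and the main fit used no pairing. The Onecut1 call was lost within arrays 1 and 2, without HNF6KO arrays 3 and 4, and without any of WT arrays 1, 3 and 4 or HNF6KO array 3 or 4 (limma, adjusted p = 0.0633 to 0.171). Cyp4f14 was lost within arrays 1 and 2 (limma, adjusted p = 0.0976) and without WT array 2 (0.0570), and Alas2 passed in 4 fits.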

Other observations

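The genes outside the family whose values were most like those of Ugt2b34 were Deptor, an inhibitor of mTOR (Pearson r = 0.981, n = 8 arrays), Mr1, an antigen-presenting molecule (0.981), Nkd1, an inhibitor of Wnt signalling (0.976), and Gpatch2 (0.975). By deviations from the group means, the most like were Cyp4a12b, a P450 of male mouse liver (0.986), Usp22 (0.986), Dusp7 (0.986) and Plod1 (0.984), and 0 of these 8 genes passed the test between the groups (limma, adjusted p = 0.787 to 0.974). By the same measure the genes most like Ugt2b1 were Olfr1448 (0.994), Scn3b (0.990), Matn3 (0.988) and Itga2b (0.987). All 4 of these were dim, with WT means of 4.36 to 6.62 and SDs of 0.03 to 0.12, so the likeness rests on small differences. All genes in this paragraph were picked for the highest r among all genes outside the family. With 8 arrays such a pick gives a high r in any case, so the lists are a description and no shared function is read from them.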
